A study of Homo sapiens with 9 samples.

Results

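Collagen chains and the glycoproteins, proteoglycans, elastic fibre proteins and crosslinking enzymes that surround them in connective tissue were measured as RNA in MCF10A cells and in 2 lines transformed from them. The genes were every symbol of the form of a collagen chain (COL, a type number, A, a chain number) plus 18 listed genes (POSTN, FN1, SPARC, TNC, THBS1, THBS2, FBN1, FBN2, FBLN1, ELN, LOX, LOXL1, LOXL2, LOXL4, BGN, DCN, LUM and VCAN). They came to 62 of the 60199 symbols in the count table, of which 44 were collagen chains. MCF10A is an established nonmalignant human mammary epithelial line, and its untreated control cultures (CT) received neither BMP2 nor IL6. The MCF10A medium itself held horse serum, insulin, hydrocortisone, cholera toxin and EGF. Long exposure of unsorted cells to BMP2 and IL6 had given the MC26 line. Exposure of cells sorted for BMPR1B, a receptor of BMPs, to the same factors had given the M1B26 line in a shorter time. Each line was represented by 3 independent cultures, and poly-A RNA was sequenced. Both transformed lines were kept in BMP2 and IL6, so the effect of the factors in the medium and that of transformation cannot be told apart. M1B26 was expanded from soft-agar clones and MC26 was not, so between these lines the sort, the cloning and the length of exposure cannot be told apart. Whether a given M1B26 library came from one of the clones or from their mixture is not given in the sources used here.

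Collagens are trimers of alpha chains that wind into a triple helix, and each type builds its own kind of assembly: banded fibrils, the sheet-like network of the basement membrane, beaded filaments, or anchors between a cell and the layer beneath it. Most interstitial collagen of the breast is made by fibroblasts, whereas the basal epithelial cells contribute basement membrane chains and the transmembrane collagen of hemidesmosomes. Matricellular proteins such as periostin and thrombospondin-1 bind these assemblies and cell receptors, and lysyl oxidases link the finished fibres.

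Upstream sequences are shown for the gene with the largest rise in MC26 (POSTN), for the most abundant collagen transcript of both transformed lines (COL17A1), and for the stretch that COL4A1 and COL4A2 share between their opposed starts, since these genes moved together. The sequences were read from RefSeq on GRCh38.p14 and are written 5′ to 3′. The POSTN window, upstream of the RefSeq start, is chr13:37598769-37599018 on the minus strand, and the GENCODE v44 boundary of POSTN lies inside it. That of COL17A1 is chr10:104085881-104086130 on the minus strand, and the 126 bases between COL4A1 and COL4A2 are chr13:110307158-110307283, on the plus strand. Capitals mark matches on either strand to any of the motifs searched. The STAT element was searched as TTCNNNGAA. The AP-1 site, bound by FOS and JUN proteins, was searched as TGANTCA. The TATA box was searched as TATAAA. The GC element bound by SMAD proteins of the BMP pathway was searched as GGCGCC. The CCAAT box was searched by its name.
POSTN: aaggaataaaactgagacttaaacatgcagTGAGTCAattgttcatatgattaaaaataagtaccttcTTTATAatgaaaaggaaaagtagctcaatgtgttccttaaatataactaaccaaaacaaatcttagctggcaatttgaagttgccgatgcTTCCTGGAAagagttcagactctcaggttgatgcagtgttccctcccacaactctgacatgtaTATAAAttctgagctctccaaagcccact
COL17A1: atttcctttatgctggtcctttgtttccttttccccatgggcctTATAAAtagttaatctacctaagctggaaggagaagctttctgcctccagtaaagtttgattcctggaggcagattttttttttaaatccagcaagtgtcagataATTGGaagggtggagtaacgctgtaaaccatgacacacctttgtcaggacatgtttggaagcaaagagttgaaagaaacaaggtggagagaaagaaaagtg
COL4A1-COL4A2: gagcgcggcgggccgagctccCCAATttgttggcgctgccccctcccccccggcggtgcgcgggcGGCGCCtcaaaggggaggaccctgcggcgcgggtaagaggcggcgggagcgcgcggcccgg
The POSTN stretch held matches to the STAT, AP-1 and TATA letters, that of COL17A1 to TATA and CCAAT, and that of COL4A1 and COL4A2 to CCAAT and the SMAD GC element. None of the marked matches overlapped another. Over windows of 300 bases around 35116 RefSeq starts, the STAT letters stood in 7.66%, AP-1 in 7.71%, TATA in 11.5%, the SMAD GC element in 19.2% and CCAAT in 34.6%. Of the 46 members with such a window, 4 held the STAT letters (COL11A2, COL7A1, POSTN and THBS1), 2 held AP-1 (COL10A1 and POSTN), 9 held TATA, 16 held the SMAD GC element and 16 held CCAAT. A member was counted if any of its windows held the letters, whereas the percentages are of single windows, so the member counts are not directly comparable with them. A match describes the letters and is not a binding site.

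Total counts per library ran from 21425118 (CT replicate 2) to 80076597, and 3 counts, taken as the floor of detection, stood for 0.0366 to 0.131 CPM (counts scaled to a library size of 1000000) depending on the library. Intervals and floors cover counting error only. Libraries of a line correlated at 0.986 to 0.995 in log2 CPM, and those of different lines at 0.951 to 0.975. The epithelial identity of the lines was checked with 10 markers, and 10 of 10 were above the floor in each line. Their summed level was 8388 to 10423 CPM for CT, 11360 to 15312 for MC26 and 9900 to 10384 for M1B26, with KRT5 the most abundant in each. Single markers moved within it. EPCAM, an epithelial adhesion molecule, fell from a mean of 70.4 CPM in CT to 14.8 in MC26 (adjusted p = 3.65e-06), and M1B26 held 72.1 (adjusted p = 0.865). CDH1, encoding E-cadherin, fell by 0.91 and 0.79 on the log2 scale (adjusted p = 0.00097 and 0.00149), and the basal keratin gene KRT14 rose from 54.0 to 1097 and 548 CPM. The part of these shifts in the matrix values was not tested. Of 8 fibroblast markers, THY1 and DPT had no count in any library, PDGFRA and TCF21 were at or near 0, and the summed level of the 8 was 18.2 to 19.3 CPM for CT, 25.5 to 37.8 for MC26 and 15.7 to 18.5 for M1B26. FAP and LSP1 made up nearly all of it and moved in opposite directions. FAP rose from 7.42 CPM in CT to 29.0 and 14.4 in MC26 and M1B26 (adjusted p = 7.36e-06 and 0.000617), and LSP1 fell from 10.4 to 2.44 and 1.97 (adjusted p = 1.9e-05 and 5.35e-06). The summed endothelial list lay between 2.19 and 8.25 CPM and the smooth muscle list between 12.7 and 20.6. The leukocyte list summed to 14.8 to 20.0 CPM for CT, 34.6 to 36.8 for MC26 and 56.8 to 78.9 for M1B26, carried by CD68 and CD14, whereas PTPRC was at or near 0 and CD3E at 0 in every library. Fewer producing cells and less RNA per cell cannot be told apart in such bulk libraries.

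Of the 62 genes, 38 passed the filter on low counts (at least 0.229 CPM in 3 or more libraries) and were tested, 23 of them collagen chains. The other 24 held at most 40 counts in any library, the value of COL9A3 in CT replicate 3, and 8 of them had no count anywhere (COL10A1, COL14A1, COL19A1, COL22A1, COL26A1, COL6A6, COL9A1 and LOXL4). The classical interstitial chains COL3A1 and COL1A2 had 3 counts each over the 9 libraries, and ELN, which encodes elastin, had at most 1 in a library. Among the tested genes, 32 passed the cutoff in all 9 libraries. BGN and COL28A1 passed it throughout CT, COL2A1 throughout MC26, COL6A2 and LUM throughout M1B26, and POSTN throughout MC26 and M1B26. Genes that pass through the line where they are high are bound to differ, so the shares below describe the 38 tested genes and not all 62.

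In MC26 against CT, 25 of the 38 tested genes were called changed (adjusted p under 0.05, edgeR quasi-likelihood test with Benjamini-Hochberg adjustment over 15717 genes). This was 65.8%, where 38.7% of all tested genes were called. Higher in MC26 were 10 members, beside 18.8% of all genes, and lower were 15, beside 19.9%. In M1B26 against CT, 24 members were called, 63.2% beside a background of 48.9%. Of these, 9 were higher (background 25.2%) and 15 were lower (background 23.7%). Between the transformed lines, 18 members (47.4%, background 39.5%) were called, 7 of them higher in M1B26 (background 21.2%) and 11 lower (background 18.4%). The median log2 fold change of the 38 genes was -0.21 in MC26 and -0.24 in M1B26 against CT, where the median of all genes was 0.001 and 0.0019. BGN, which had no count in MC26, lay below both members' medians at its fitted value and at its bound, so the choice between these could not move the medians.

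The comparisons of the lines with CT use the same CT libraries, so the values of each are given side by side. COL17A1, COL27A1, FBN2 and POSTN were higher in both transformed lines. BGN, COL12A1, COL16A1, COL18A1, COL28A1, COL4A5, FBLN1, FBN1, LOX, LOXL1 and SPARC were lower in both. Among these, the calls of POSTN and COL18A1 in M1B26 and of LOXL1 in both lines ended without some single libraries. No member was called in opposite directions in this fit. In 5 of 6 other settings of the fit THBS1 was, higher in MC26 and lower in M1B26. Called against CT in MC26 but not in M1B26 were 10 members (6 higher and 4 lower), and for 7 of them the lines themselves differed by the test between MC26 and M1B26. Called in M1B26 but not in MC26 were 9 (5 higher and 4 lower), 6 of which differed between the lines. COL11A2, COL2A1, COL6A1 and DCN were called in no comparison. The share of all tested genes with each of these patterns is not given here. As 38.7% and 48.9% of all genes were called against the same CT libraries, the pattern counts describe the members alone.

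**Figure D1:**
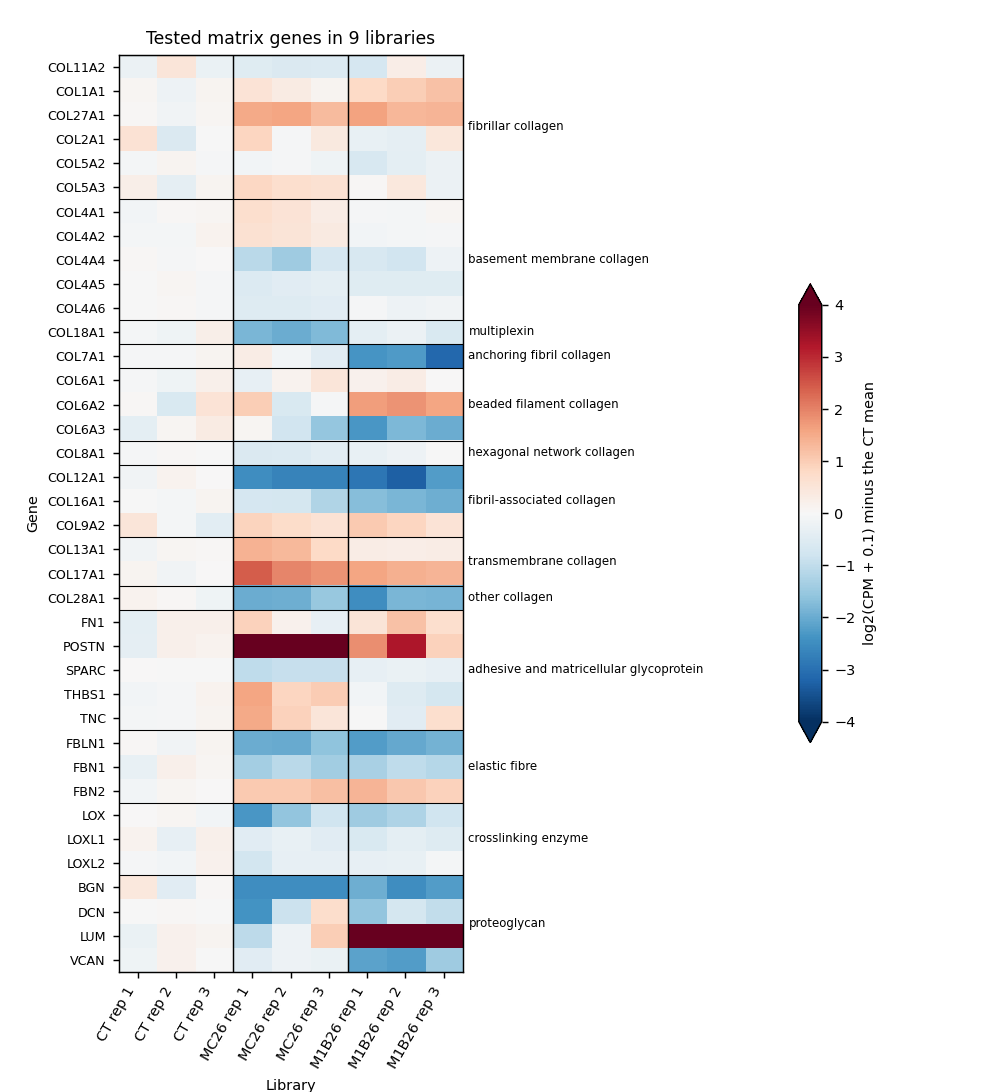
Each row is 1 of the 38 tested genes, grouped by role, and each column 1 of the 9 libraries, with colour giving log2(CPM + 0.1) minus the mean of the CT libraries on the same scale (colours end at -4 and 4). POSTN is darkest red in the 3 MC26 libraries and LUM in the 3 M1B26 libraries, whereas COL12A1, FBLN1, FBN1 and BGN are blue in all 6 transformed libraries.

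The summed level of the 62 genes was 2499 ± 95.1 CPM in CT (mean ± SD, n = 3), 3708 ± 505 in MC26 and 2570 ± 137 in M1B26. The lowest MC26 library, at 3391, stood above the highest of the other lines, whereas CT (2411 to 2600) and M1B26 (2462 to 2725) overlapped. COL17A1 supplied 11.04% ± 1.06 of it for CT, 31.1% ± 2.97 for MC26 and 29.4% ± 0.665 for M1B26 (SD, n = 3), and the CT libraries (10.1% to 12.2%) lay far below both lines. FBN2 made up 9.40% for CT, 13.8% for MC26 and 19.9% for M1B26, and THBS1 supplied 13.0%, 19.6% and 9.37% in the same order.

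Levels were compared between genes per kilobase of the Ensembl canonical transcript. In CT, FBLN1 led with 96.6 ± 8.52 CPM per kb, followed by COL17A1 (49.1), THBS1 (41.7) and COL4A2 (38.5), and the ranges of neighbours among these last 3 overlapped. In MC26 the order was COL17A1 (207 ± 47.3), THBS1 (94.5 ± 25.6), COL4A2 (53.9) and FBN2 (46.2), with overlap between COL4A2 and FBN2. In M1B26 it was COL17A1 (135 ± 10.3), FBN2 (47.0 ± 7.4), COL4A2 (36.6), THBS1 (31.1), SPARC (26.2) and FBLN1 (23.3), with overlap between each pair of neighbours from COL4A2 on. FBLN1 thus stood at the head of the CT order and in the fifth and sixth place of the transformed lines.

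**Figure D2:**
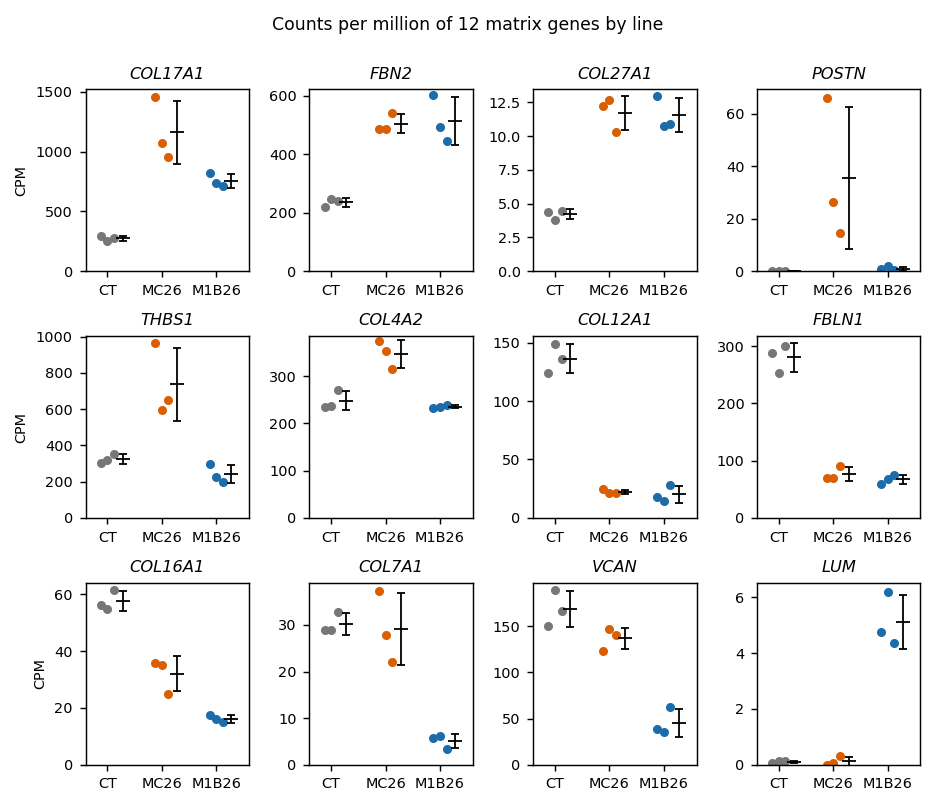
CPM on a linear axis from 0 for 12 genes, with 1 point per library and the mean ± SD of each line (n = 3) beside its points. COL17A1, FBN2 and COL27A1 are high in both transformed lines, POSTN, THBS1 and COL4A2 in MC26, and LUM in M1B26, whereas COL12A1 and FBLN1 are low in both lines and COL7A1 and VCAN in M1B26.

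Both tested transmembrane collagens were higher in MC26 than in CT, and COL17A1 also in M1B26. COL17A1 (chromosome 10, 104031286 to 104085880) encodes the collagen XVII of hemidesmosomes, which fasten basal epithelial cells to the basement membrane. Its level was 294, 252 and 281 CPM in the CT libraries, 1461, 1073 and 953 in MC26 and 821, 739 and 709 in M1B26. The 3 lines did not overlap, with CT lowest and MC26 highest. The log2 fold change against CT was 2.08 ± 0.14 (SE, adjusted p = 2.1e-06), a 4.22-fold rise, in MC26 and 1.46 ± 0.14 (adjusted p = 1.28e-05), 2.74-fold, in M1B26. M1B26 was lower than MC26 by 1.54-fold (adjusted p = 0.00455). COL13A1, a transmembrane collagen of cell adhesion sites, was far less abundant and rose in MC26 from 0.941 ± 0.0862 to 2.24 ± 0.486 CPM (log2 fold change 1.26, adjusted p = 0.000602). In M1B26 it stood at 1.16 ± 0.0242 CPM (adjusted p = 0.22). The other members of this role, COL23A1 and COL25A1, were not tested, and COL23A1 had 2 to 6 counts in the CT libraries and none in the transformed lines.

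Of the type IV chains of basement membranes, COL4A1 and COL4A2 rose in MC26, whereas COL4A4, COL4A5 and COL4A6 fell there. COL4A1 and COL4A2, whose chains form the common network of basement membranes, lie head to head on chromosome 13. COL4A1 was 93.7 to 106 CPM for CT, 125 to 162 for MC26 and 96.3 to 108 for M1B26, and COL4A2 was 236 to 272, 315 to 374 and 232 to 240. Both were higher in all MC26 libraries than in any other library. Their log2 fold changes in MC26 were 0.51 ± 0.10 (adjusted p = 0.0018) and 0.49 ± 0.08 (adjusted p = 0.000844). In M1B26 they were -0.01 ± 0.10 (adjusted p = 0.918) and -0.07 ± 0.08 (adjusted p = 0.472), and the difference between the lines was -0.53 (adjusted p = 0.00162) for COL4A1 and -0.56 (adjusted p = 0.000396) for COL4A2. The ratio of COL4A2 to COL4A1 CPM was 2.45 ± 0.153 for CT, 2.42 ± 0.107 for MC26 and 2.36 ± 0.113 for M1B26 (SD, n = 3), ranges that overlapped.

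COL4A5 and COL4A6, the chains of the epithelial network on the X chromosome, have RefSeq starts 379 bases apart. COL4A5 fell from 120 ± 4.80 CPM (CT) to 86.8 ± 4.28 (MC26) and 85.6 ± 0.797 (M1B26), by 0.47 and 0.49 on the log2 scale (adjusted p = 0.000201 and 9.74e-05). COL4A6 fell in MC26 from 111 ± 3.0 to 79.3 ± 2.36 CPM (log2 fold change -0.49, adjusted p = 0.000188) and stood at 102 ± 6.17 in M1B26 (-0.13, adjusted p = 0.113). The lines differed for COL4A6 by 0.36 (adjusted p = 0.00147). The ratio of COL4A5 to COL4A6 CPM was 1.06 to 1.095 in CT and 1.05 to 1.13 in MC26 but 0.787 to 0.884 in M1B26, with no overlap. The remaining tested chain, COL4A4, was lower in MC26 (2.25 ± 0.0656 against 1.06 ± 0.304 CPM, adjusted p = 0.00361) and stood at 1.53 ± 0.342 in M1B26 (adjusted p = 0.0554), and its partner COL4A3 had 33 counts in CT and 5 in each transformed line over 3 libraries. The M1B26 value of COL4A4 passed 0.05 in 6 of the alternative settings, among them without MC26 replicate 3 (adjusted p = 0.0318) and without M1B26 replicate 3 (adjusted p = 0.024).

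COL18A1, a multiplexin of basement membranes whose C-terminal fragment is endostatin, fell from 3.45 ± 0.537 CPM in CT to 0.873 ± 0.0805 in MC26, 3.97-fold (adjusted p = 1.55e-05). In M1B26 it was 2.59 ± 0.339 CPM, with an adjusted p of 0.0491 that was 0.221 without CT replicate 3 and above 0.05 also without CT replicate 1, MC26 replicate 1 or 2, or M1B26 replicate 1 or 3. M1B26 exceeded MC26 2.94-fold (adjusted p = 0.000117). Of its exon bases 28.9% lie in the more abundant SLC19A1, whose own log2 fold change was 0.42 for MC26 (adjusted p = 0.0347) and 0.38 for M1B26 (adjusted p = 0.0393), and whether counting was stranded is not given. The part of SLC19A1 reads in the COL18A1 values was not tested.

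COL7A1 (chromosome 3, 48564073 to 48595329) encodes the anchoring fibrils that tie the basement membrane to the stroma. Its 3 CT libraries held 28.9, 28.9 and 32.9 CPM, MC26 held 37.3, 27.9 and 22.0, and M1B26 held 5.75, 6.22 and 3.36. CT and MC26 overlapped, and every M1B26 library was below all of them. The log2 fold change of M1B26 was -2.58 ± 0.23 against CT (5.97-fold lower, adjusted p = 8.01e-06) and -2.52 ± 0.23 against MC26 (adjusted p = 2.08e-05), whereas that of MC26 against CT was -0.06 ± 0.21 (adjusted p = 0.845).

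The fibrillar collagens were sparse. Of 11 chains, 6 were tested, and none had a mean above 15.4 CPM in any line. COL27A1, a short fibrillar chain, had 4.36, 3.80 and 4.49 CPM for CT, 12.3, 12.7 and 10.3 for MC26 and 13.0, 10.7 and 10.9 for M1B26. Both transformed lines lay above CT and overlapped each other. Its log2 fold change against CT was 1.46 ± 0.12 for MC26 (adjusted p = 8.14e-06) and 1.44 ± 0.12 for M1B26 (adjusted p = 5.92e-06), or 2.75-fold and 2.71-fold. COL1A1, the main chain of type I collagen, was 7.73 ± 0.873 CPM for CT, 9.73 ± 1.45 for MC26 and 15.4 ± 1.97 for M1B26, with a 1.98-fold rise in M1B26 (adjusted p = 0.000163). In MC26 its log2 fold change was 0.32 ± 0.14 (adjusted p = 0.0893, and 0.0339 without MC26 replicate 3). Its partner COL1A2 had no count in the CT libraries, 1 in those of MC26 and 2 in those of M1B26. COL1A1 lies on chromosome 17, whose 849 tested genes had a median log2 fold change of 0.47 in M1B26 against CT, beside -0.02 for all other genes, and the part of this shift in the COL1A1 value was not tested.

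COL5A2, a chain that type V collagen adds to fibrils, was 9.43 ± 0.620 CPM for CT, 8.66 ± 0.397 for MC26 and 7.04 ± 0.926 for M1B26, a fall in M1B26 of 0.41 on the log2 scale (adjusted p = 0.0106). Its usual partner COL5A1 had 13 counts over the 9 libraries. COL5A3 rose in MC26 from 0.482 to 0.835 CPM (adjusted p = 0.0457), a call that ended without any 1 of the CT or MC26 libraries or M1B26 replicate 1, with a highest adjusted p of 0.134 without MC26 replicate 1. COL11A2 and COL2A1 stayed at or under 0.83 CPM in every library and were called nowhere.

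**Figure D3:**
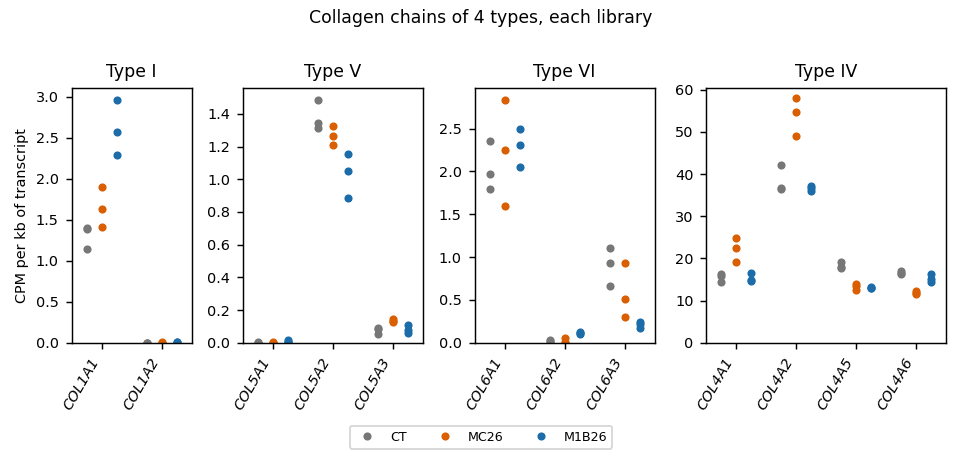
CPM per kilobase of canonical transcript for chains of collagen types I, V, VI and IV, with 1 point per library and a linear axis from 0 in each panel. COL1A2, COL5A1 and COL6A2 lie near 0 beside their partner chains, whereas COL4A1 and COL4A2 rise together in MC26.

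Type VI collagen, which forms beaded microfilaments, is assembled from COL6A1, COL6A2 and COL6A3. COL6A1 was 8.58 ± 1.19 CPM for CT, 9.37 ± 2.58 for MC26 and 9.60 ± 0.954 for M1B26, with adjusted p of 0.526 or more in each comparison. COL6A3 had 6.98, 9.78 and 11.7 CPM for CT, 9.79, 5.36 and 3.13 for MC26 and 1.78, 2.6 and 2.27 for M1B26. Every M1B26 library was below all others, and MC26 overlapped CT. The log2 fold change of COL6A3 was -2.09 ± 0.36 in M1B26 (4.27-fold lower, adjusted p = 0.000669) and -0.64 ± 0.33 in MC26 (adjusted p = 0.153). Without MC26 replicate 1, which had the highest level of its line, the MC26 value was -1.16 (adjusted p = 0.00897). COL6A2 was near the floor, with at most 0.199 CPM in CT and MC26 and 0.351 to 0.426 in M1B26, where it was called higher (adjusted p = 0.0132, and 0.0619 without CT replicate 1). Its call against MC26 (adjusted p = 0.0269) ended without any of 5 single libraries, MC26 replicates 2 and 3 and each M1B26 library, with adjusted p between 0.0529 and 0.0788.

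Of 10 fibril-associated collagens, 3 were tested, and the 2 abundant ones fell in both lines. COL12A1 (chromosome 6, 75084326 to 75206267), whose protein sits on the surface of type I fibrils, had 124, 149 and 136 CPM for CT, 24.4, 21.2 and 21.3 for MC26 and 18.1, 14.2 and 28.5 for M1B26. CT stood above both lines without overlap, and the lines overlapped. The log2 fold change was -2.61 ± 0.20 in MC26 (6.11-fold lower, adjusted p = 4.74e-06) and -2.74 ± 0.20 in M1B26 (6.70-fold lower, adjusted p = 2.32e-06). COL16A1, another fibril-associated chain, had 56.4, 54.7 and 61.6 CPM for CT, 35.9, 35.1 and 25 for MC26 and 17.6, 16.0 and 14.9 for M1B26. The 3 lines formed a descending order without overlap, and each step passed the test. It fell by 0.85 ± 0.13 (MC26, adjusted p = 0.000412) and by 1.83 ± 0.13 (M1B26, adjusted p = 1.75e-06) on the log2 scale, and M1B26 was 1.98-fold below MC26 (adjusted p = 0.000217). COL9A2 was below 1 CPM everywhere and was called higher in M1B26 (0.438 ± 0.172 CPM in CT, 0.828 ± 0.154 in M1B26, adjusted p = 0.0291). That adjusted p was 0.128 without CT replicate 3 and above 0.05 without CT replicate 2, M1B26 replicate 1 or M1B26 replicate 2. MC26 stood at 0.770 ± 0.0945 CPM (adjusted p = 0.0607 against CT, and 0.0156 without CT replicate 1). The transformed lines did not differ by the test for COL9A2 (adjusted p = 0.81).

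COL8A1, a chain of hexagonal networks beneath endothelia and of other basement membranes, fell in MC26 from 47.1 ± 1.76 to 32.8 ± 2.05 CPM (log2 fold change -0.52, adjusted p = 0.000602). M1B26, at 41.9 ± 4.0 CPM, differed from MC26 (0.35, adjusted p = 0.00606) and overlapped CT (adjusted p = 0.109, and 0.0341 without M1B26 replicate 3). COL28A1 fell from 0.594 ± 0.0740 CPM (CT) to 0.0980 ± 0.0374 (MC26) and 0.0698 ± 0.0410 (M1B26) (adjusted p = 0.000534 and 0.000135), levels close to the floor.

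Among the adhesive and matricellular glycoproteins, POSTN (chromosome 13, 37562583 to 37598844), which encodes periostin, had the largest log2 fold change of the tested members in MC26. Its CT libraries held 0.0571, 0.131 and 0.122 CPM, those of MC26 65.9, 26.2 and 14.4, and those of M1B26 0.631, 1.77 and 0.277. The 3 lines did not overlap, and within MC26 replicate 1 held 4.56 times the level of replicate 3. The log2 fold change of MC26 was 8.47 ± 0.85 against CT (adjusted p = 2.75e-05), and that of M1B26 against MC26 was -5.37 ± 0.64 (adjusted p = 0.00012). Leaving out 1 library at a time gave 7.67 to 8.85 and -6.33 to -4.55, with every adjusted p at or under 0.00134. In M1B26 against CT it was 3.11 ± 1.17 (adjusted p = 0.0464), a call that ended without any 1 of the CT libraries, M1B26 replicate 1 or M1B26 replicate 2, with adjusted p between 0.0695 and 0.218. The CT value rests on 3 to 10 counts per library. Per kilobase, POSTN reached 10.8 ± 8.17 CPM in MC26, which placed it eleventh among the members.

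THBS1, which encodes the adhesive glycoprotein thrombospondin-1, an activator of latent TGF-beta, had 302, 317 and 355 CPM for CT, 964, 594 and 651 for MC26 and 298, 228 and 200 for M1B26. MC26 was above every other library and M1B26 below every CT library. The log2 fold change was 1.18 ± 0.18 in MC26 (2.27-fold, adjusted p = 0.000538) and -0.43 ± 0.18 in M1B26 (adjusted p = 0.0714), and M1B26 was 3.04-fold below MC26 (adjusted p = 9.31e-05). The M1B26 value passed 0.05 in 5 of 6 other settings of the fit and without MC26 replicate 1 (adjusted p = 0.0204) or M1B26 replicate 1 (adjusted p = 0.028). TNC, encoding tenascin-C, had 9.64, 9.82 and 10.9 CPM for CT, 29.2, 19.4 and 14.1 for MC26 and 10.0, 7.31 and 16.3 for M1B26. Its MC26 libraries stood above CT, and M1B26 overlapped both lines. TNC rose 2.06-fold in MC26 (adjusted p = 0.0149), which became 0.0508 without CT replicate 1 and 0.0641 without MC26 replicate 1, and its call between the lines (log2 fold change -0.89, adjusted p = 0.0289) was 0.126 without MC26 replicate 1 and above 0.05 also without MC26 replicate 2, M1B26 replicate 1 or M1B26 replicate 2.

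FN1, which encodes fibronectin, was 54.3 ± 11.9 CPM for CT, 68.1 ± 30.4 for MC26 and 93.8 ± 24.3 for M1B26. It was called higher in M1B26 (1.73-fold, adjusted p = 0.0392), a call that ended without any 1 of the CT libraries, MC26 replicate 2, M1B26 replicate 2 or M1B26 replicate 3, with a highest adjusted p of 0.163 without M1B26 replicate 2. In MC26 the adjusted p was 0.389. SPARC, the collagen-binding protein osteonectin, had close replicates, with 112 ± 1.06 CPM for CT, 57.7 ± 2.42 for MC26 and 90.3 ± 2.33 for M1B26. It fell 1.94-fold (MC26, adjusted p = 1.23e-06) and 1.24-fold (M1B26, adjusted p = 0.00128), and the lines differed by 0.65 on the log2 scale (adjusted p = 2.08e-05). THBS2 was not tested, with 0 counts in CT and 1 to 9 per library in the transformed lines.

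Of the elastic fibre genes, FBN2 rose and FBN1 and FBLN1 fell, each in both lines. FBN2, encoding fibrillin-2, had 219, 247 and 239 CPM for CT, 487, 485 and 541 for MC26 and 602, 494 and 444 for M1B26. CT lay below both lines, which overlapped. It rose 2.15-fold in MC26 (log2 fold change 1.102 ± 0.11, adjusted p = 2.03e-05) and 2.18-fold in M1B26 (1.13 ± 0.11, adjusted p = 1.15e-05). FBN1, encoding fibrillin-1, the main microfibril protein of adult tissues, had 8.41, 11.9 and 10.9 CPM for CT, 3.98, 4.86 and 3.86 for MC26 and 4.10, 5.04 and 4.58 for M1B26. It fell 2.44-fold (adjusted p = 9.26e-05) and 2.26-fold (adjusted p = 0.000103), without overlap with CT. FBLN1, whose product fibulin-1 binds fibronectin and elastic fibres, had 288, 253 and 300 CPM for CT, 70.2, 69.1 and 90.9 for MC26 and 59.9, 67.9 and 75.0 for M1B26. These were falls of 3.66-fold (log2 fold change -1.87 ± 0.12, adjusted p = 1.57e-06) and 4.15-fold (-2.05 ± 0.12, adjusted p = 6.12e-07). Between MC26 and M1B26 the adjusted p was 0.869 for FBN2, 0.593 for FBN1 and 0.246 for FBLN1.

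**Figure D4:**
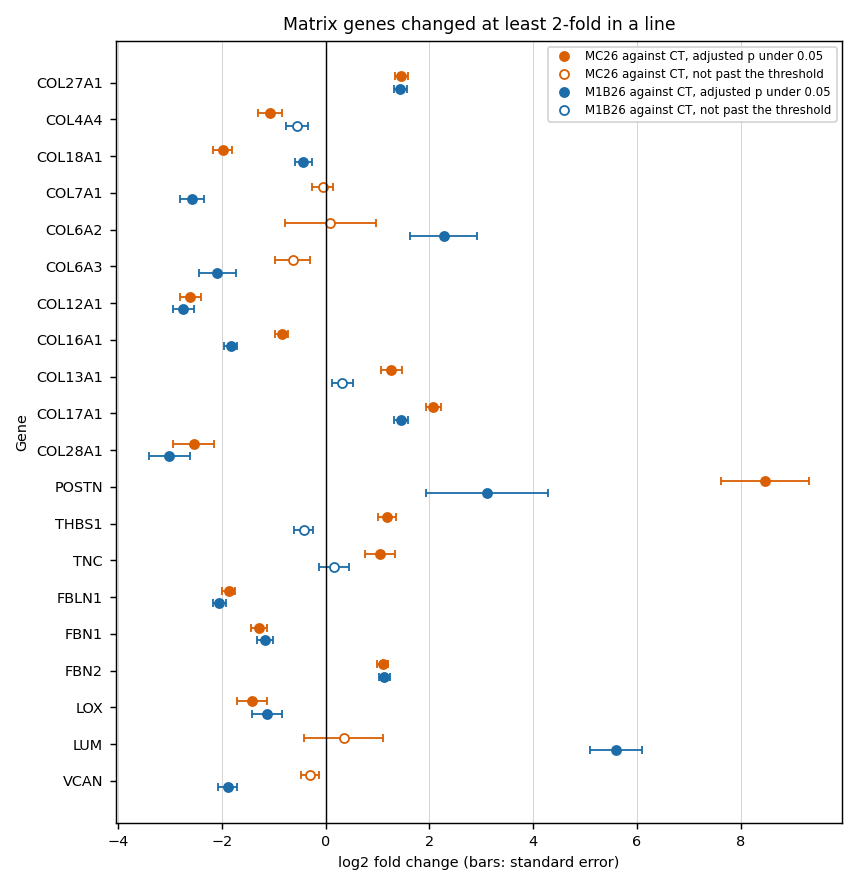
Log2 fold changes against CT (points) with their standard errors (bars) for the 20 tested genes called in either line with a change of at least 2-fold. BGN is left out because it had no count in MC26. Filled points passed an adjusted p of 0.05. POSTN lies far right in MC26 and LUM in M1B26, COL7A1, COL6A3 and VCAN are filled to the left in M1B26 alone, and COL12A1, FBLN1 and FBN1 are filled to the left in both lines.

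Of the crosslinking enzymes, 3 of 4 were tested, and every call was a fall. LOX, encoding lysyl oxidase, had 44.1, 46.3 and 40.7 CPM for CT, 8.70, 14.6 and 25.4 for MC26 and 16.4, 18.4 and 25.1 for M1B26. All transformed libraries were below CT, and the lines overlapped. It fell by 1.43 ± 0.29 (MC26, adjusted p = 0.00314) and by 1.13 ± 0.29 (M1B26, adjusted p = 0.00779) on the log2 scale. LOXL2, of the same enzyme family, was 51.0 ± 5.15 CPM in CT, 37.3 ± 5.67 (MC26, adjusted p = 0.0105) and 43.3 ± 3.95 (M1B26, adjusted p = 0.111). LOXL1 was 2.58 ± 0.498, 1.90 ± 0.117 and 1.77 ± 0.137 CPM. It was called lower in M1B26 (adjusted p = 0.0165, with 0.0681, 0.0748 and 0.0605 without CT replicate 1, CT replicate 3 and M1B26 replicate 1) and, at an adjusted p of 0.0499, in MC26, where leaving out CT replicate 3 gave 0.184 and only the fit without CT replicate 2 kept the call among the 9 that leave out a library. Antisense or neighbouring genes share 9.89% of the exon bases of LOXL1 and 8.01% of those of LOXL2, and LOXL1-AS1 itself rose in M1B26 (log2 fold change 1.15, adjusted p = 5.05e-05).

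Of the proteoglycans, VCAN fell and LUM rose in M1B26, and BGN fell in both lines. VCAN, encoding the large proteoglycan versican, had 150, 189 and 166 CPM for CT, 124, 147 and 140 for MC26 and 38.2, 35.4 and 62.3 for M1B26. M1B26 stood below every other library. It fell 3.71-fold in M1B26 (log2 fold change -1.89 ± 0.19, adjusted p = 1.61e-05), whereas MC26 gave -0.30 ± 0.18 (adjusted p = 0.209, and 0.0339 without M1B26 replicate 3). LUM, encoding lumican, a small proteoglycan that regulates fibril width, had 0.0714, 0.131 and 0.122 CPM for CT, 0, 0.0784 and 0.306 for MC26 and 4.75, 6.2 and 4.38 for M1B26. It was near the floor in CT and MC26 and above both in M1B26, by 5.59 ± 0.50 (adjusted p = 7.88e-06) and 5.25 ± 0.49 (adjusted p = 2.68e-05) on the log2 scale. Without 1 library the difference between the lines ran from 4.68 to 6.97. BGN, encoding biglycan, had 0.479 ± 0.176 CPM in CT and no count in MC26, so it was at least 6.43-fold lower in MC26, taking 3 counts per library as the floor (adjusted p = 0.000333). In M1B26 it had 3 counts beside 92 in CT, at least 7.4-fold lower by the same floor (adjusted p = 0.000387). The ratio of these pooled counts, scaled for depth, was 24.7, with an exact 95% counting interval of 8.19 to 122. MC26 and M1B26 did not differ by the test (adjusted p = 0.165), so the values do not rank the falls in the lines.

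DCN, encoding decorin, the fibril-coating proteoglycan whose gene lies 28989 bases from LUM on chromosome 12, held 29.0 ± 0.732 CPM for CT, 22.9 ± 21.8 for MC26 and 14.0 ± 4.15 for M1B26, and no comparison passed the threshold (adjusted p = 0.645, 0.129 and 0.318). The calls depended on the samples and filter of the fit. Without MC26 replicate 3, which held 47.3 CPM, the MC26 value was -1.45 (adjusted p = 0.00877), and without MC26 replicate 1 or 3 that of M1B26 against CT was -1.05 (adjusted p = 0.0215 and 0.0137). In M1B26 against CT the adjusted p was 0.000733 in a fit of only these lines and 5.67e-05 without the filter on low counts, and M1B26 against MC26 had -1.18 (adjusted p = 0.0293) without MC26 replicate 1 and an adjusted p of 0.01 without the filter. M1B26 lay below CT in all 3 libraries.

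The MC26 cultures differed among themselves in matrix genes more than the CT cultures did. Of 26 members with a mean of at least 5 CPM over all 9 libraries, 6 spanned at least 2-fold among the MC26 libraries (COL6A3, DCN, FN1, LOX, POSTN and TNC), where 1.52% of 10635 such genes did. In M1B26 COL12A1, POSTN and TNC did so (0.611% of genes), and in CT POSTN alone, on few counts (0.32%). The median ratio of the highest to the lowest library was 1.32 for the members and 1.13 for all genes in MC26, 1.27 and 1.12 in M1B26, and 1.16 and 1.16 in CT. The genes described next were chosen after these values were seen. MC26 replicate 1 held the highest level of its line for POSTN, TNC, FN1, COL6A3, COL17A1 and THBS1, for example 102 CPM of FN1 against 59.97 and 42.6. MC26 replicate 3 held the highest level of LOX and DCN, with 47.3 CPM of DCN against 5.44 in replicate 1 and 15.9 in replicate 2.

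**Figure D5:**
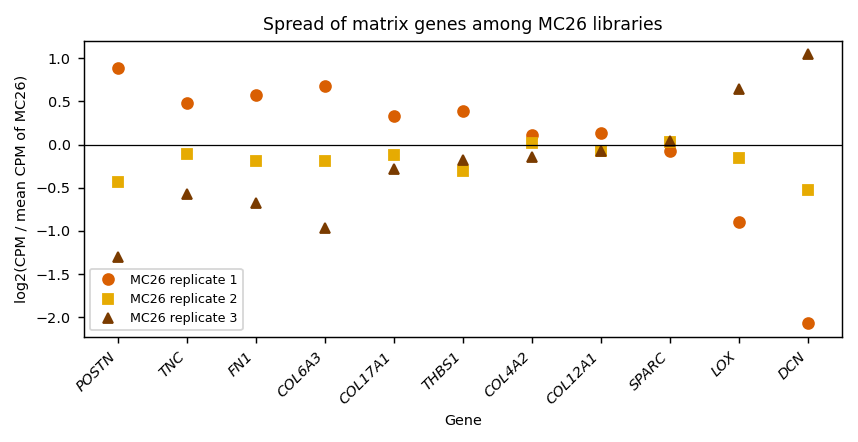
Log2 ratio of CPM in each MC26 library to the mean CPM of the 3, for 11 genes. Replicate 1 is the highest point for POSTN, TNC, FN1, COL6A3, COL17A1 and THBS1 and the lowest for LOX and DCN, whereas SPARC varies little.

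Genes that process collagen in the secretory pathway and outside the cell were listed separately. Of 28, 25 were tested. In MC26 5 were higher and 7 lower than in CT, in M1B26 7 and 7, and between the lines 11 were higher in M1B26 and 10 lower. These were 12, 14 and 21 of 25, where 38.7%, 48.9% and 39.5% of all tested genes were called. The median log2 fold changes were -0.01, -0.03 and 0.02, beside 0.001, 0.0019 and -0.0014 for all genes. BMP1, the procollagen C-proteinase, fell in steps from 63.1 ± 4.36 CPM (CT) to 47.3 ± 2.52 (MC26) and 27.6 ± 1.57 (M1B26) (adjusted p = 0.00143 and 9.37e-07 against CT). PLOD2, a lysyl hydroxylase, fell in both lines as well, by 0.49 and 0.77 on the log2 scale (adjusted p = 0.00229 and 7.91e-05). The prolyl 3-hydroxylase gene P3H2 fell from 23.8 ± 1.16 CPM to 5.25 ± 0.608 in MC26 and 10.5 ± 3.05 in M1B26. P3H3, of the same family, went in opposite directions, from 15.4 ± 1.16 CPM in CT down to 6.87 ± 1.12 (MC26, adjusted p = 3.14e-05) and up to 31.0 ± 2.5 (M1B26, adjusted p = 3.97e-05), and the lines differed by 2.17 ± 0.12 (adjusted p = 8.23e-07). PLOD3 also went in opposite directions, by 0.36 (MC26, adjusted p = 0.0105) and -0.29 (M1B26, adjusted p = 0.0247), and PPIB, a proline isomerase, was higher in both, by 0.21 (adjusted p = 0.0303) and 0.41 (adjusted p = 0.000544). The ends of the list were set by genes near or under 1 CPM. P4HA3, a prolyl 4-hydroxylase chain, had 0.401 ± 0.0631 CPM in CT, 0.818 ± 0.306 in MC26 (adjusted p = 0.0623) but only 0.0864 ± 0.0828 in M1B26 (adjusted p = 0.00691), and the lines differed by -3.22 (adjusted p = 0.000748). COLGALT2, a collagen galactosyltransferase, fell in MC26 from 0.477 ± 0.154 to 0.0811 ± 0.0484 CPM (adjusted p = 0.00156) and stood at 0.458 ± 0.0751 in M1B26 (adjusted p = 0.937). P4HA3 in M1B26 and COLGALT2 in MC26 were under the cutoff of the filter on low counts, which each passed through the other lines. Their falls were thus favoured in advance.

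Of 16 matrix receptors, 14 were tested. In MC26 5 were higher and 4 lower, in M1B26 4 and 4, and between the lines 2 were higher in M1B26 and 5 lower. The sums were 9, 8 and 7 of 14, beside the same all-gene shares of 38.7%, 48.9% and 39.5%. MRC2, the endocytic collagen receptor Endo180, had the deepest fall of its list in both lines, from 44.3 ± 3.71 CPM to 10.6 ± 1.22 in MC26 and 9.70 ± 0.578 in M1B26 (adjusted p = 3.12e-07 and 1.23e-07). SDC1, encoding the heparan sulfate proteoglycan syndecan-1, rose by 0.74 and 0.59 on the log2 scale (adjusted p = 0.000233 and 0.000638). ITGA1, a collagen-binding integrin chain, rose in M1B26 by 0.74 (adjusted p = 0.0014). DDR2, a collagen-binding receptor kinase, was higher in MC26 than in either other line, with 2.25 ± 0.199 CPM beside 1.40 ± 0.354 in CT (adjusted p = 0.0231) and 1.43 ± 0.349 in M1B26 (adjusted p = 0.0366). ITGB5, a vitronectin-binding integrin chain, fell in both lines and was lower in M1B26 than in MC26 (log2 fold changes -0.38, -0.92 and -0.54, adjusted p = 0.00355, 7.17e-06 and 0.000479).

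A list of 39 other matrix and matricellular genes held 24 that were tested. In MC26 5 were higher and 9 lower, in M1B26 5 and 10, and between the lines 4 were higher in M1B26 and 8 lower, with medians of -0.35, -0.36 and -0.38 where those of all genes were 0.001, 0.0019 and -0.0014. The all-gene shares were 18.8% higher and 19.9% lower in MC26, 25.2% and 23.7% in M1B26, and 21.2% and 18.4% between the lines. LTBP1, which anchors latent TGF-beta to fibrillin microfibrils, rose from 76.1 ± 3.14 CPM to 393 ± 13.0 in MC26 and 281 ± 30.4 in M1B26 (adjusted p = 2.82e-08 and 9.33e-08), and LTBP3 fell from 97.6 ± 17.98 to 44.2 ± 7.72 and 32.7 ± 2.34. SPOCK1, a testican proteoglycan, fell, with log2 fold changes of -1.76 and -2.96 (adjusted p = 0.000183 and 5.42e-06). TGFBI, which encodes a collagen-binding adhesion protein, had 2496 ± 263 CPM for CT, 5946 ± 2232 for MC26 and 2453 ± 359 for M1B26 (adjusted p = 0.00157 and 0.936). VWA1, a matrix protein found near basement membranes, was 1.05 ± 0.462 CPM for CT, 0.0745 ± 0.00393 for MC26 and 1.37 ± 0.104 for M1B26, a difference between the lines of 4.15 ± 0.41 (adjusted p = 3.49e-05). SPP1, encoding osteopontin, rose by 2.64 and 1.95 (adjusted p = 9.43e-05 and 0.000506), from 0.498 ± 0.249 CPM. MFAP5, a microfibril-associated protein gene, rose to 0.442 ± 0.195 and 0.516 ± 0.155 CPM (adjusted p = 0.00185 and 0.000623) from a CT level near the floor, 0.0830 ± 0.0416. MFAP5 passed the filter on low counts through the transformed lines alone, and VWA1 through CT and M1B26 alone. Their differences from the remaining line were thus favoured in advance. ECM1, encoding extracellular matrix protein 1, rose from 3.37 ± 0.294 CPM to 11.3 ± 2.79 in MC26 and 5.55 ± 1.02 in M1B26 (adjusted p = 5.67e-05 and 0.0115). The matricellular gene CCN3 fell from 4.69 ± 0.257 CPM to 3.32 ± 0.491 and 2.28 ± 0.203 (adjusted p = 0.0172 and 0.000178), and both genes also differed between the lines (adjusted p = 0.00152 and 0.0141).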

How the data were processed

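Poly-A RNA of 9 cultures was paired-end sequenced. The sample titles gave each line and replicate number. The authors deposited raw counts per gene symbol, for which reads had been aligned to GRCh38 with STAR 2.7.3a and GENCODE v33 genes, and the submitters' notes also name Salmon 1.1.0. The counting program, its strandedness and its handling of reads with several alignments are not given in the sources used here. Members and lists were chosen with earlier results of these data known. The test was run by edgeR 4.0.16 under R 4.3.3. The function filterByExpr (minimum count 10) left 15717 of 60199 symbols, libraries were scaled by TMM (factors 0.968 to 1.07), and a quasi-likelihood fit with the line as its only term was made to all 9 libraries. P-values are 2-sided, Benjamini-Hochberg adjusted over all genes tested, and called under 0.05. They measure the spread between cultures. The biological coefficient of variation was 10.4%. The SE is the absolute log2 fold change divided by the square root of F. CPM used TMM-scaled library sizes. The values in each library were given for tested members with a mean of at least 5 CPM in a line and a called log2 fold change of at least 1 in size, and the rest by means and ranges. Genes outside the member list were named if called in every comparison or at either end of their list in a comparison, and LOXL3 was named for its enzyme family. Positions and canonical transcript lengths came from GENCODE v44 on GRCh38, which held all 62 members, and upstream windows from RefSeq. The results were recomputed with DESeq2 1.42.0, with total counts or RLE factors, with no filter, with a fit of only the 6 libraries compared, with a replicate block, at an adjusted p under 0.01 and leaving out each library.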

Additional observations from a re-analysis of the deposited data

Results flagged for a closer look

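The change against CT differed between the transformed lines for 18 tested members (47.4%, where 39.5% of all tested genes were called). This was by the edgeR test of M1B26 against MC26, which is the test of that difference because both changes are taken against the same CT libraries. The values are log2, the change in M1B26 minus that in MC26. Lower in M1B26 were POSTN (-5.37), COL7A1 (-2.52), THBS1 (-1.61), VCAN (-1.59), COL6A3 (-1.46), COL16A1 (-0.99), COL13A1 (-0.94), TNC (-0.89), COL17A1 (-0.62), COL4A2 (-0.56) and COL4A1 (-0.53). Higher in M1B26 were LUM (5.25), COL6A2 (2.19), COL18A1 (1.56), COL1A1 (0.66), SPARC (0.65), COL4A6 (0.36) and COL8A1 (0.35). For POSTN, THBS1, COL4A1, COL4A2, COL13A1 and TNC the level in MC26 was the high one, and for COL7A1, COL6A3 and VCAN that in M1B26 was the low one. The call of COL6A2 ended without MC26 replicate 2 (adjusted p = 0.0788) and that of TNC without MC26 replicate 1 (adjusted p = 0.126). COL1A1 lies on chromosome 17, whose tested genes had a median of 0.48 in the same comparison, and its part in the COL1A1 difference was not tested.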

How the results depend on the processing

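Every call among the members kept its direction under every alternative, and 22 of 25 calls in MC26 against CT, 18 of 24 in M1B26 against CT and 16 of 18 between the lines also stayed past 0.05 under all but the stricter threshold. The other calls were those of COL5A3, LOXL1 and TNC in MC26 against CT, those of COL18A1, COL6A2, COL9A2, FN1, LOXL1 and POSTN in M1B26 against CT and those of COL6A2 and TNC between the lines, whose values without single libraries are given with the genes. Other settings also took the adjusted p past 0.05. In MC26 against CT they were total counts (0.0628), no filter (0.0785), the replicate block (0.0732) and DESeq2 (0.116) for COL5A3, and RLE factors (0.0513), no filter (0.101), the block (0.0828), a fit of only the lines compared (0.0727) and DESeq2 (0.0824) for LOXL1. In M1B26 against CT they were no filter (0.102), the block (0.081) and DESeq2 (0.0843) for COL18A1, total counts (0.0567), the block (0.0593) and DESeq2 (0.0888) for FN1, and DESeq2 (0.056) for COL9A2. Between the lines a fit of only these lines gave 0.051 for TNC. Leaving out each library gave 23 to 26, 19 to 27 and 16 to 20 members changed in the order of the comparisons. DESeq2 gave 26, 25 and 18, and an adjusted p under 0.01 gave 21, 17 and 16. A fit with no filter gave 30, 30 and 20. That fit also took in members that the filter had removed, so its larger counts are not larger shares of the same genes. The number of members it tested and its all-gene share are not given here. With total counts in place of TMM the median log2 fold change of all genes moved by -0.076, -0.093 and -0.017, the called genes split into 2169 higher and 3898 lower in MC26 against CT (2947 and 3134 by TMM) and 3094 and 4729 in M1B26 against CT (3959 and 3729), and the members into 9 and 15 and into 8 and 20. Deviations of libraries with the same number correlated at -0.114 to 0.137. Libraries with different numbers were not compared in this way, so these values do not decide whether the numbers pair the cultures. A replicate block gave 24, 24 and 18 members changed.

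Among values that were not called, the sign changed for COL5A3 in M1B26 against CT with total counts (-0.070). Values that changed sign when a library was left out are given by their lowest and highest log2 fold change. In MC26 against CT these were COL6A1 -0.098 to 0.31, COL6A2 -1.55 to 0.95, COL7A1 -0.28 to 0.11, DCN -1.45 to 0.13, FN1 -0.074 to 0.58 and LUM -1.37 to 0.92. In M1B26 against CT these were COL11A2 -0.45 to 0.091, COL2A1 -0.72 to 0.22, COL4A1 -0.072 to 0.021, COL5A3 -0.19 to 0.20 and TNC -0.22 to 0.39. In M1B26 against MC26 these were COL12A1 -0.47 to 0.068, COL27A1 -0.12 to 0.033, COL4A5 -0.056 to 0.014, COL6A1 -0.16 to 0.24, COL9A2 -0.028 to 0.24, DCN -1.18 to 0.39, FBN2 -0.10 to 0.12 and LOX -0.00067 to 0.78. The cause was not tested. Depth limits the members near the floor (BGN, COL28A1, COL6A2, and LUM and POSTN in CT), and their fitted fold changes depend on few counts. With 3 cultures per line, a single library often decided whether a moderate change was called, and no preparation batch is given in the sources used here.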
